A study of Mus musculus with 8 samples.

Results

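The 35 genes described here mark the endothelium, the cell layer that lines blood and lymph vessels, or guide the growth of vessels. They were taken as a fixed list of endothelial identity, receptor and angiogenesis genes and matched by symbol in a count table of brown fat RNA. The list was chosen with earlier results of these data known. All 35 were among its 54385 gene identifiers, and 34 passed the filter on low counts. Ackr1, a chemokine receptor of venules, did not pass, and its values are given only as levels.

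The tissue was brown adipose tissue of C57BL/6N mice aged 20 weeks on chow, called interscapular in the sample labels and inguinal in the series' design text. Polyadenylated RNA was sequenced from 4 control (WT) and 4 knockout (cKO) libraries. Mice of both groups carry floxed Adcy3 alleles (Adcy3-FL/FL), and Adcy3 encodes adenylyl cyclase 3, which produces the second messenger cyclic AMP. WT libraries are labelled Adipoq-wt/wt and cKO libraries Adipoq-wt/cre, a Cre driven from the adiponectin gene, which is active in adipocytes and not directed at endothelium. WT replicate 4 is the exception: its title calls it WT, while its genotype entry reads Adipoq-wt/cre. It was kept in the WT group by its title. The labels do not say that libraries came from separate animals, so p-values here weigh differences only against variation among libraries, which may be technical.

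Library totals ran from 10713043 to 32437214 estimated counts. Adcy3 itself was lower in every cKO library (17.95 to 25.3 CPM, the estimated count scaled to library size) than in any WT library (61.7 to 118 CPM), which edgeR estimated at -2.26 log2 units (adjusted p = 0.000925). The lowest WT value was that of replicate 3, and replicate 4 stood at 118 CPM. Ucp1, which defines brown fat, was at 2233 to 4545 CPM over the 8 libraries. WT replicate 3 also stood apart in the genes described here, and results that rest on it are given with and without it. Every one of the 35 genes, Cdh5, Pecam1, Tie1 and Kdr among them, had counts in every library. Apart from Ackr1 (2 to 24 counts) and Angpt2 (14 to 43), the lowest count of a member in any library was 25.

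Brown fat is densely vascularised, because its heat production needs oxygen and fuel from the blood and its heat must be carried away. Endothelial cells are held together by VE-cadherin (Cdh5), claudin 5 (Cldn5) and Pecam1. They read vessel growth factors through the VEGF receptors (Flt1, Kdr, Flt4, with Nrp1 as a coreceptor), the Tie receptors (Tie1, Tek), the apelin receptor (Aplnr) and Notch (Notch1, with its ligand Dll4). Their identity is kept by ETS factors such as Erg and Fli1 and by the SOXF factors Sox17 and Sox18. The ligands Vegfb, Angpt1, Angpt2 and Apln act on these receptors, and Vegfb and Angpt1 are made mainly by cells other than endothelium.

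ETS factors such as Fli1 bind DNA around a GGAA core. Promoter windows are shown for the Tie and the VEGF receptor pairs. Tie1 and Tek varied together with Fli1 over the libraries, and Flt1 and Kdr varied together with Cdh5. The windows were picked after these values were seen, and whether Fli1 acts on any of these genes was not tested. The RefSeq table for GRCm38.p6 held windows for 20 of the 35 genes (24 windows, each from 250 bases before to 50 bases after a transcription start). Each is printed 5′ to 3′ along the gene, with capitals marking AGGAAG or CAGGAA on either strand (as CTTCCT or TTCCTG on the other). The windows are chr4:118489800-118490099 (minus strand) for Tie1, chr4:94739039-94739338 (plus strand) for Tek, chr5:75978406-75978705 (minus strand) for Kdr and chr5:147725962-147726261 (minus strand) for Flt1.
Tie1: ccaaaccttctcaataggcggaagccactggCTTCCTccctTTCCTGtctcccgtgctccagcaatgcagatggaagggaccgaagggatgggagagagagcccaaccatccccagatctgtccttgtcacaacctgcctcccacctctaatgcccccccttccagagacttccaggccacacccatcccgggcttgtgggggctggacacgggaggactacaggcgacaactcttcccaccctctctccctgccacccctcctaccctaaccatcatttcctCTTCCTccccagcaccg
Tek: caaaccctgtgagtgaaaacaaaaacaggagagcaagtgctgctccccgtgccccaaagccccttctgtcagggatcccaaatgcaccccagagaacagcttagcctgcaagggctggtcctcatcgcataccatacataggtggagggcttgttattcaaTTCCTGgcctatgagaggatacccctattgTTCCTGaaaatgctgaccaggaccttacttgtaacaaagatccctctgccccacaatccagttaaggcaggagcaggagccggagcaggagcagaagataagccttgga
Kdr: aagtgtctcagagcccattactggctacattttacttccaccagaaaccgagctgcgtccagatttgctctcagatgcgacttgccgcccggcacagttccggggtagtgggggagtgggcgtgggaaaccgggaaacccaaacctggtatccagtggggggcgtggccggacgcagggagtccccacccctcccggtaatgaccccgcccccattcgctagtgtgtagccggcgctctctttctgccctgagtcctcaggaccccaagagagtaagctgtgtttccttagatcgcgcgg
Flt1: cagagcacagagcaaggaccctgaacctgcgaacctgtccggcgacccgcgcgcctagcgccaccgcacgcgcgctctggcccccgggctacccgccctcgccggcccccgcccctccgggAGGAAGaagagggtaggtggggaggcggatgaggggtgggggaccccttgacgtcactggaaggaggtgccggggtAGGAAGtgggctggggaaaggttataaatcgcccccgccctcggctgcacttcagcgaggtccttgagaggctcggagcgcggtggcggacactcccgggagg

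Tie1 held 3 matches of AGGAAG or CAGGAA, Tek 2, Flt1 2 and Kdr 0. The shorter GGAA core was not counted, and it also stands outside the capitals, in the Kdr window too. The motifs overlap, since CAGGAAG holds both. Either motif stood in 15 of the 24 windows (62.5%), against 47.8% of all 32851 windows in the table. AGGAAG alone was in 12 (50%, against 35.4% of all windows), CAGGAA in 13 (54.2%, against 30.6%) and the SOX-type sequence AACAAT in 3 (12.5%, against 10.7%). These are matches of letters, and binding was not measured.

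Levels were compared between genes per kilobase (kb) of exon, on the CPM scale. In WT, Vegfb was the most abundant of the 35 genes, at 64.5 ± 6.08 CPM per kb (SD, n = 4). Cdh5 came next among them at 41.1 ± 10.2, followed by S1pr1, the receptor for sphingosine 1-phosphate that keeps vessels tight, at 31.7 ± 7.38. Eng, the endoglin coreceptor of BMP signalling, stood at 22.4 ± 7.23 CPM per kb. The median over the list was 8.72 CPM per kb. Neighbours in this order mostly could not be told apart: in 28 of 34 neighbouring pairs the gap was smaller than the larger of their SDs. From Eng to Meox2, positions 4 to 24, no neighbouring gap exceeded that spread. The order below Cdh5 also depended on the length used. Per kb of the longest transcript, Vegfb (80.8) and Cdh5 (43.3) stayed highest in WT. Nrp1 (34.6) and Egfl7 (34.1) then stood above S1pr1 (31.7), and Pecam1 (29.9) and Esam (29.3) above Eng (26.5).

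The tail of the order held Apln, the angiopoietins and several markers of special vessels. Flt4, the receptor of lymphatic and some capillary endothelium, was at 1.28 ± 0.355 CPM per kb in WT and Vwf, the clotting factor of larger vessels and veins, at 1.04 ± 0.223. Apln had 0.698 ± 0.186, Ackr1 0.373 ± 0.158 and Angpt2, the antagonist ligand of Tek made by activated endothelium, 0.351 ± 0.0276 CPM per kb. Angpt1, the agonist ligand of the same receptor, stood higher at 2.48 ± 0.952. The spread of each gene over its libraries was small beside the differences between the top and the tail of the order.

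**Figure D1:**
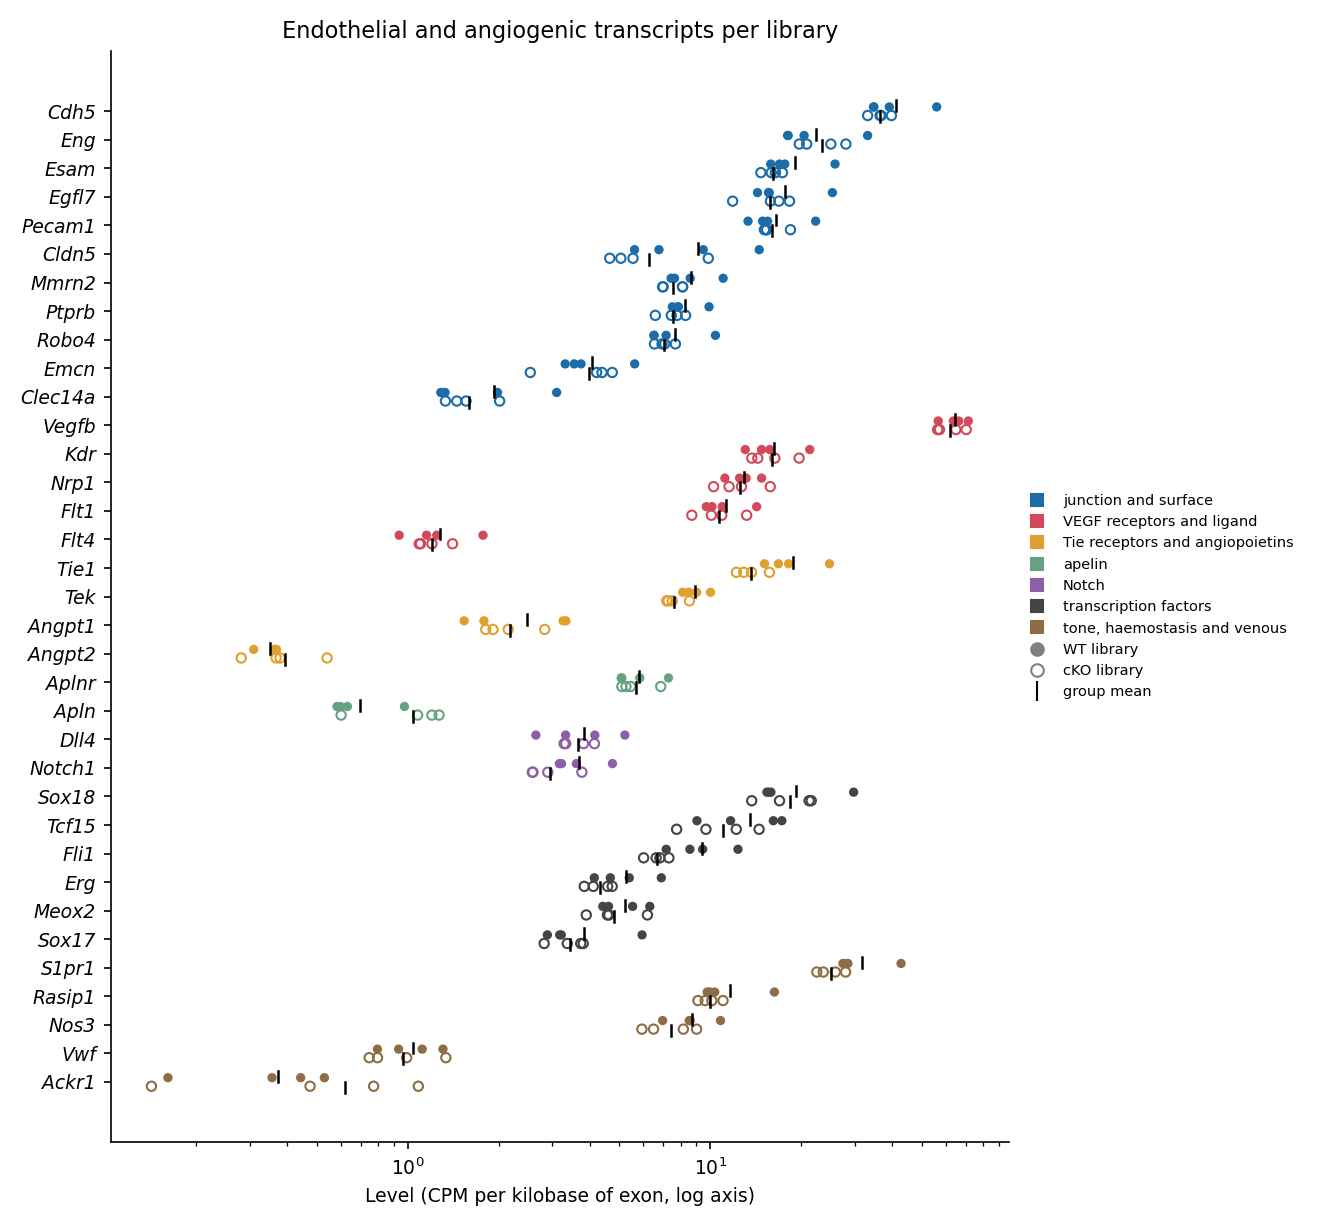
Level of each of the 35 genes in CPM per kilobase of exon (log axis), with 1 point per library (filled, WT; open, cKO) and a bar at each group's mean; colours give the role. Vegfb and Cdh5 lie at the right, Angpt2 and Ackr1 at the left, and the WT and cKO points of every gene overlap.

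The main VEGF receptors varied together. Kdr, the main signalling receptor for VEGF-A, had 133, 142, 193 and 118 CPM in WT replicates 1 to 4 and 124, 148, 129.7 and 178 CPM in cKO replicates 1 to 4. Flt1, which binds the same ligand and Vegfb and limits its action, had 131, 148, 192 and 137 in WT and 117, 147, 136 and 178 CPM in cKO. In both genes WT replicate 3 was the highest library and cKO replicate 4 the second. The Flt1 to Kdr ratio of CPM, not corrected for length, was 1.05 ± 0.0803 in WT and 0.9997 ± 0.0419 in cKO (SD, n = 4 each), so it varied little between libraries whose receptor levels differed. Fitted log2 fold changes were -0.018 (95% interval -0.37 to 0.34) for Kdr and -0.070 (-0.40 to 0.26) for Flt1.

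Nrp1, their coreceptor, had 122, 129, 109 and 145 in WT and 113, 155, 100.4 and 124 CPM in cKO, with WT replicate 3 the lowest of the WT libraries. Its r was -0.14 with Kdr and -0.031 with Flt1 on the log2 CPM scale, against 0.13 and 0.29 without that library. Nrp1 is also made by other cells of fat. The WT libraries held 7.71 to 14.6 CPM of Flt4 and the cKO libraries 8.99 to 11.6. The ligand Vegfb was the steadiest member, with a 1.26-fold range over 8 libraries against a median of 1.83-fold over the 34 tested genes. It had 91.1, 102, 114 and 106 in WT and 90.6, 91.97, 104 and 113 CPM in cKO, and its log2 fold change was -0.052 (-0.30 to 0.20).

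The Tie receptors lay lower in cKO than in WT on average, with overlapping groups. Tie1, an orphan receptor that modulates Tek, had 74.3, 82.7, 122 and 89.3 in WT and 67.3, 60.02, 63.5 and 77.2 CPM in cKO. Only cKO replicate 4 exceeded the lowest WT library. The log2 fold change of Tie1 was -0.46 ± 0.15 (SE, 95% interval -0.79 to -0.13), and after adjustment over all genes edgeR did not call it (adjusted p = 0.867, unadjusted p = 0.0103). Tek, the angiopoietin receptor, had 40.1, 38.2, 47.2 and 42.5 in WT and 35.3, 33.9, 34.2 and 40.2 CPM in cKO, and again only cKO replicate 4 exceeded the lowest WT library. Its log2 fold change was -0.23 (-0.46 to 0.007, edgeR adjusted p = 0.886). The Tie1 to Tek ratio of CPM, not corrected for length, was 2.18 ± 0.302 in WT and 1.86 ± 0.0666 in cKO (SD, n = 4 each).

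The angiopoietin levels are set beside those of their receptors. Angpt1 had 9.30, 17.4, 7.996 and 16.99 in WT and 14.8, 11.2, 9.96 and 9.43 CPM in cKO, and its lowest library, WT replicate 3, was the highest for both receptors. Over the libraries, Angpt1 had r of -0.15 with Tie1 and -0.24 with Tek on the log2 CPM scale, against 0.51 and 0.19 without WT replicate 3. Angpt2 had 1.34, 1.14, 1.34 and 1.36 in WT and 1.35, 1.997, 1.396 and 1.04 CPM in cKO, with cKO replicates 2 and 4 at the top and the bottom. With 14 to 43 counts per library, a modest difference in Angpt2 was not detectable at this depth (95% interval -0.54 to 0.83 on the log2 scale). Angpt2 overlaps Mcph1 on the opposite strand, and the strand setting of the counting is not given in the sources used here.

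Apelin, a peptide secreted by sprouting endothelium and by fat cells, had the most positive fold change of the list. Apln stood at 1.99, 3.07, 1.84 and 1.89 in WT and 1.90, 3.40, 3.998 and 3.79 CPM in cKO. Replicates 2, 3 and 4 of cKO lay above every WT library, whereas cKO replicate 1 lay within the WT range. The log2 fold change was 0.58 ± 0.30 (SE, 95% interval -0.069 to 1.22) and did not pass edgeR's test (adjusted p = 0.886, unadjusted p = 0.0756). Its sign was positive under all 19 alternatives, with values from 0.40 to 0.78, and no alternative called it (smallest adjusted p = 0.488, with limma-voom and library quality weights). The receptor gene Aplnr had 21.6 ± 3.81 in WT and 20.98 ± 2.98 CPM in cKO, and the fitted log2 difference was -0.039. These values rest on 25 to 64 Apln counts per library.

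In the Notch pair, Notch1 had 45.2, 51.4, 67.6 and 45.9 in WT and 36.9, 41.3, 36.7 and 53.6 CPM in cKO, and the fitted log2 difference was -0.32 with a 95% interval of -0.66 to 0.027. The groups overlapped through cKO replicate 4. Dll4, the Notch ligand of tip cells and arteries, had 14.8 ± 4.27 and 14.03 ± 1.58 CPM (log2 fold change -0.078). The Dll4 to Notch1 ratio of CPM, not corrected for length, was 0.282 ± 0.0622 in WT and 0.336 ± 0.0261 in cKO. Per kb of exon, the WT levels were 3.84 for Dll4 and 3.69 for Notch1.

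Among the transcription factors, Fli1 had the smallest unadjusted p of the 34 tested members. Fli1 stood at 24.9, 29.9, 43.1 and 32.9 in WT and 21.003, 23.8, 23.1 and 25.5 CPM in cKO, with only cKO replicate 4 above the lowest WT library. The log2 fold change was -0.49 ± 0.16 (SE, 95% interval -0.82 to -0.15), and edgeR did not call it (adjusted p = 0.844, unadjusted p = 0.00829). It stayed negative in all 19 alternatives (-0.60 to -0.32). Fli1 is also expressed in blood cells. Erg, the ETS factor more restricted to endothelium, had 18.3 ± 4.14 in WT and 14.96 ± 1.46 CPM in cKO, and the fitted log2 difference was -0.29 with a 95% interval of -0.64 to 0.060.

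The SOXF genes varied together over libraries. Sox17 had 15.2, 15.4, 28.4 and 13.8 in WT and 13.5, 16.1, 18.2 and 17.8 CPM in cKO. Sox18 had 24.9, 25.7, 48.3 and 25.3 in WT and 22.2, 27.5, 34.4 and 34.96 CPM in cKO. WT replicate 3 stood far above the other WT libraries in both genes. The Sox18 to Sox17 ratio of CPM, not corrected for length, was 1.71 ± 0.0823 in WT and 1.80 ± 0.149 in cKO. Their log2 fold changes were -0.15 (-0.64 to 0.33) and -0.062 (-0.61 to 0.48). Tcf15 and Meox2, a basic helix-loop-helix and a homeobox factor of capillary endothelium that handles fatty acids, had log2 fold changes of -0.29 and -0.11.

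Junction and surface genes showed the same shape. Cdh5 had 146, 164, 236 and 146 in WT and 139, 153, 154 and 167 CPM in cKO, and Pecam1 had 92.8, 96.4, 139 and 83.04 in WT and 94.1, 95.5, 115 and 95.7 CPM in cKO. In each of them WT replicate 3 was the highest library, while the other WT libraries lay among the cKO libraries for Cdh5 and among or below them for Pecam1. Log2 fold changes were -0.17 (-0.50 to 0.16) for Cdh5 and -0.040 (-0.37 to 0.29) for Pecam1. Cldn5, the tight junction protein, varied most among the tested members, with 7.96, 13.4, 20.6 and 9.59 in WT and 13.96, 6.59, 7.17 and 7.87 CPM in cKO, a 3.12-fold range. Its interval was correspondingly wide (log2 fold change -0.53, -1.30 to 0.24). Eng had 73.3, 72.9, 134 and 82.7 in WT and 79.7, 84.4, 101 and 114 CPM in cKO and a log2 fold change of 0.063 (-0.39 to 0.51).

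The other surface and matrix genes had log2 fold changes from -0.27 to -0.035. Ptprb, the phosphatase that restrains Tek, had 110.2 ± 14.8 and 100.3 ± 9.54 CPM (SD, n = 4 each, WT and cKO), and Esam, an adhesion molecule of tight junctions, 54.7 ± 13.1 and 46.1 ± 3.14. Robo4, a guidance receptor that stabilises vessels, had 40.5 ± 9.88 and 37.4 ± 2.48 CPM, and Emcn, a sialomucin of capillaries and veins, 21.96 ± 5.74 and 21.5 ± 5.29. Mmrn2, an endothelial matrix protein, and Clec14a, a lectin that binds it, had 34.4 ± 6.59 and 8.804 ± 3.88 in WT and 29.96 ± 2.58 and 7.26 ± 1.36 CPM in cKO. In all of these WT replicate 3 was the highest library and the groups overlapped. Egfl7, a secreted endothelial protein whose gene hosts miR-126, had 56.1, 55.8, 90.8 and 51.3 in WT and 42.5, 56.6, 65.5 and 60.4 CPM in cKO. It overlaps Agpat2, a lipid synthesis gene, on the opposite strand. Of the genes for vessel tone and haemostasis, S1pr1 had 86.9, 85.6, 130.2 and 83.6 in WT and 85.4, 78.99, 72.03 and 68.6 CPM in cKO, with cKO replicate 1 inside the WT range. Its log2 fold change was -0.34 (-0.67 to -0.016, edgeR adjusted p = 0.884, unadjusted p = 0.0413). Nos3, the endothelial nitric oxide synthase, had 36.04 ± 6.56 and 30.6 ± 5.90 CPM, Rasip1, a regulator of lumen formation, 37.1 ± 10.1 and 31.9 ± 2.61, and Vwf 16.7 ± 3.58 and 15.5 ± 4.31. Rasip1 shares 18.8% of its 31-base sequences with the overlapping gene Izumo1, so part of its estimated count depends on how reads were divided. Ackr1, which shares 23.03% with Cadm3, had 0.523 ± 0.222 and 0.869 ± 0.566 CPM.

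Between genotypes, no endothelial or angiogenic gene was called. edgeR called 0 of the 34 tested members at an adjusted p of 0.05, against 10 of 14553 genes (0.0687%). At an unadjusted p under 0.05 there were 3 members, Fli1, Tie1 and S1pr1, all lower in cKO, against 5.6% of all genes tested. DESeq2 and limma-voom, with and without quality weights, also called 0 members. Over 19 alternatives and 646 member values there were 0 calls, and the smallest adjusted p was 0.0827, for Tie1 with no filter on low counts. The 2 groups did not overlap for 0 members against 3.5% of all genes. The median log2 fold change was -0.15 over the members and 0.009 over all genes. Only Apln, Angpt2 and Eng were positive, 3 of 34, against 51.8% of all genes.

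The negative lean of the list rested on WT replicate 3. Without that library the median was 0.011, 18 of 34 members were positive, 15 members had the opposite sign, and edgeR again called 0. Cdh5 went from -0.17 to 0.017, Pecam1 from -0.040 to 0.14 and Eng from 0.063 to 0.32. Fli1 at -0.32, Tie1 at -0.29 and S1pr1 at -0.16 stayed negative with smaller values. For 32 of 34 members the 95% interval lay within 1 log2 unit of 0, the exceptions being Cldn5 and Apln. The median width of the interval was 0.70 log2 units. Treating WT replicate 4 as cKO, as its genotype entry reads, or leaving it out also gave 0 called members.

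**Figure D2:**
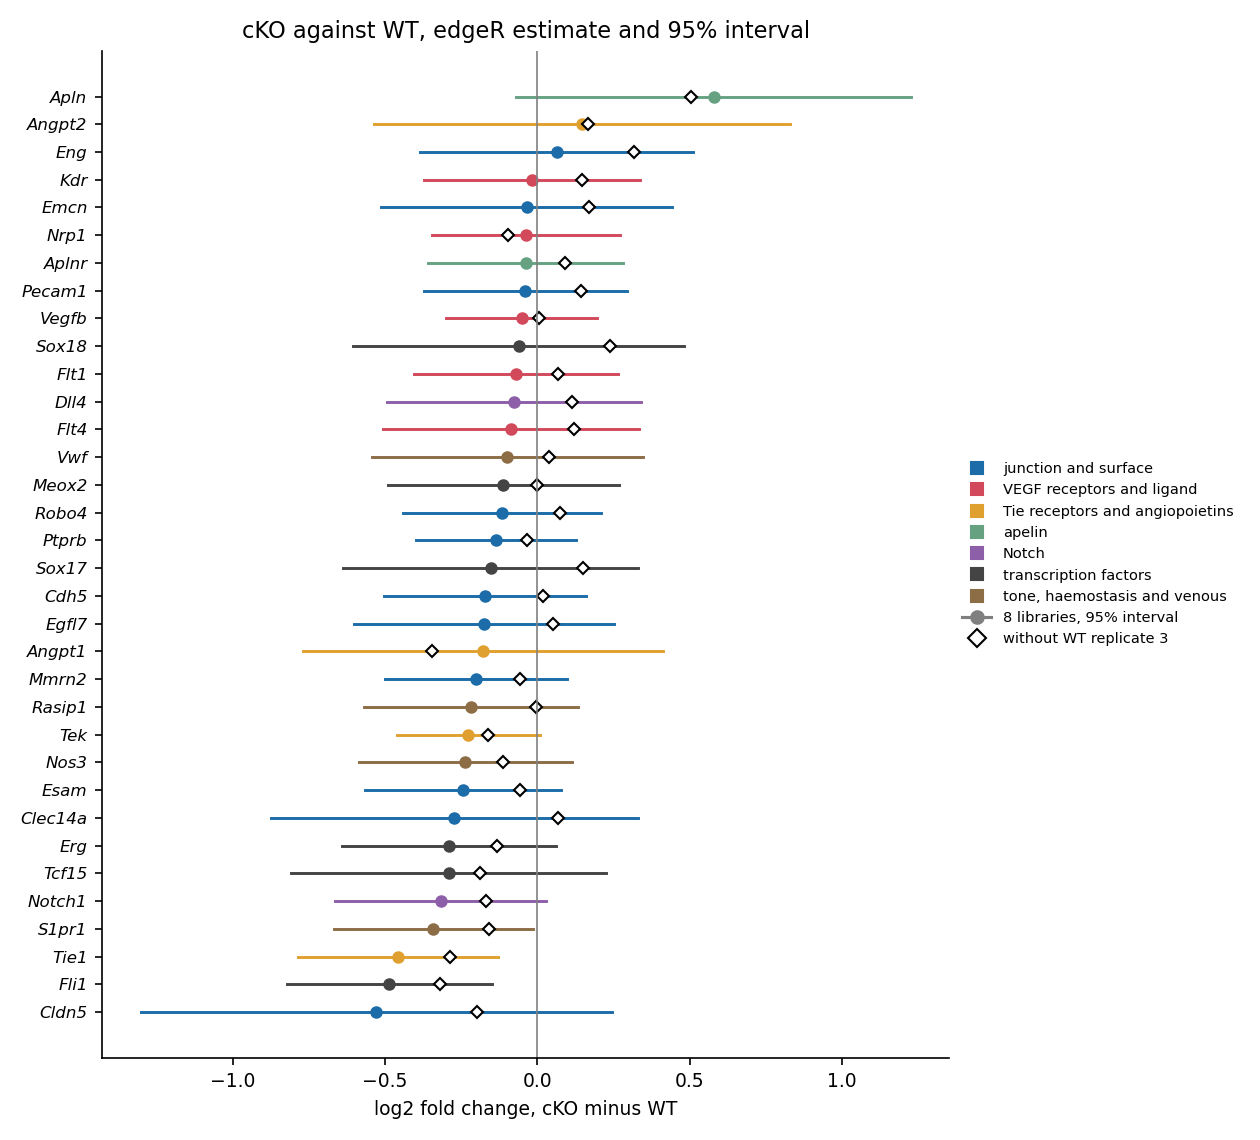
Log2 fold change of cKO against WT for the 34 tested genes (x axis), as edgeR's estimate from 8 libraries (circles, coloured by role) with its 95% interval (lines) and as the estimate without WT replicate 3 (diamonds). Only the lines of Fli1, Tie1 and S1pr1 miss 0, and 15 diamonds lie on the other side of 0 from their circle.

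WT replicate 3 stood apart in these genes. It was the highest of the 8 libraries for 28 of 34 members (82.4%), against 20.9% of all genes tested. It was the lowest for 2 of 34 members, against 20.0% of all genes. Both shares of all genes were the largest of the 8 libraries, so WT replicate 3 stood apart over the whole table too. Summed over the 35 genes, it held 2312 CPM, whereas the other WT libraries held 1578 to 1685 and the cKO libraries 1497 to 1786. The 6 exceptions were Apln, Angpt1, Angpt2, Nrp1, Tcf15 and Vwf. In bulk tissue RNA, a larger share of endothelial cells and more of these transcripts per cell cannot be told apart.

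Markers of other cell types were looked at in the same libraries. The 10 mural cell genes summed to 716 CPM in WT replicate 3, the top of a range of 561 to 716 in WT and 548 to 693 in cKO. Erythroid genes (5, with haemoglobins Hba-a2 and Hbb-bs the largest) summed to 1022 CPM there, also the highest, within 557 to 1022 in WT and 577 to 922 in cKO. Macrophage genes (8) were highest there too at 84.04 CPM, close to cKO replicate 1 at 81.7, in ranges of 46.1 to 84.04 and 38.3 to 81.7. Adipocyte genes (8) stood at 8320.1 CPM, the highest of the WT libraries and inside the cKO range of 7108 to 9756. Skeletal muscle genes (9) varied from 36.2 to 9893 CPM over all libraries and were at 357 in WT replicate 3. No gene of these lists was at 0 in every library. Fibroblast genes (8) ranged over 558 to 774 CPM in WT and 489.9 to 926 in cKO, with WT replicate 3 the highest in WT. Schwann cell genes (5) ranged over 61.5 to 121 and 69.99 to 96.7 CPM, with WT replicate 3 the lowest of all 8 libraries. Lymphocyte genes (6) and platelet genes (5) summed to at most 4.26 and 6.61 CPM in any library, and WT replicate 3 was the highest of the 8 for the platelet genes. The part of these cells in the endothelial values was not tested, except that a muscle score as a covariate again gave 0 called members and a median log2 fold change of -0.11.

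**Figure D3:**
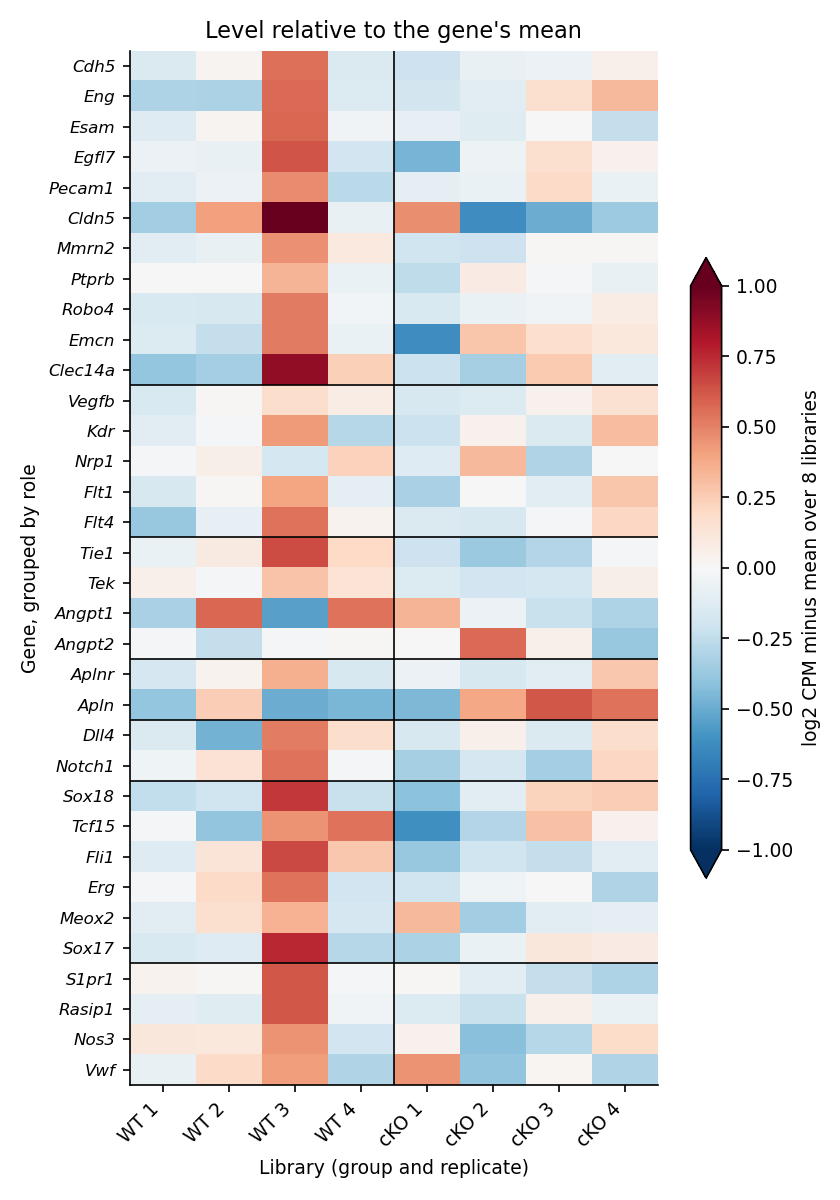
Log2 CPM of the 34 tested genes minus each gene's mean over the 8 libraries (colour scale, cut at 1 log2 unit either way), with libraries in columns and genes grouped by role. WT replicate 3 is the reddest column in nearly all groups, and Angpt1, Apln and Nrp1 are blue there.

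Covariation was measured against Cdh5, which marks endothelium, over the 8 libraries on the log2 CPM scale. Pearson's r reached 0.7 for 21 of 33 members (63.6%), against 5.99% of all 14552 other genes tested. The median r was 0.79 over the members and 0.022 over all genes. Sox17 was the closest member (r = 0.95, Spearman's rho = 0.88, two-sided exact permutation p = 0.00409 and 0.00724), ranked 12 of all genes. Flt1 had r = 0.87 and rho = 0.88 (exact permutation p = 0.000347 and 0.00724), and Kdr r = 0.85 and rho = 0.86 (exact permutation p = 0.00171 and 0.0107). Adjusted over all 14552 genes, none of these passed (0.431, 0.361 and 0.431 for Pearson's r, 0.712 for each rho). Of the whole table, 0 genes did. The orderings of 8 libraries allow no p below 2.48e-05, at which a single gene could not pass this adjustment. The lack of passing genes therefore says little about these relations. At an unadjusted exact p under 0.05 there were 17 of 33 members and 1609 of all genes.

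Most of these relations rested on the same library. Without WT replicate 3, r reached 0.7 for 5 members, Flt1 (0.89), Apln (0.80), Kdr (0.80), Sox17 (0.73) and Aplnr (0.72), and the median was 0.28. Of all genes, 2.8% then reached 0.7, and their median was -0.0068. With the 2 libraries farthest from the median of Cdh5 left out (WT replicate 3 and cKO replicate 1), 4 members had r of 0.7 or more: Aplnr (0.89), Flt1 (0.83), Kdr (0.79) and Apln (0.74). The median over the members was then 0.24, against -0.009 over all genes, of which 3.73% reached 0.7. Sox17 was at 0.58. Esam, Rasip1 and S1pr1, which had r of 0.85, 0.90 and 0.73 over 8 libraries, had -0.17, 0.10 and -0.59 over 7. Angpt1 (-0.53), Nrp1 (-0.30), Angpt2 (-0.17) and Apln (-0.11) were the only members with r below 0 over 8 libraries.

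**Figure D4:**
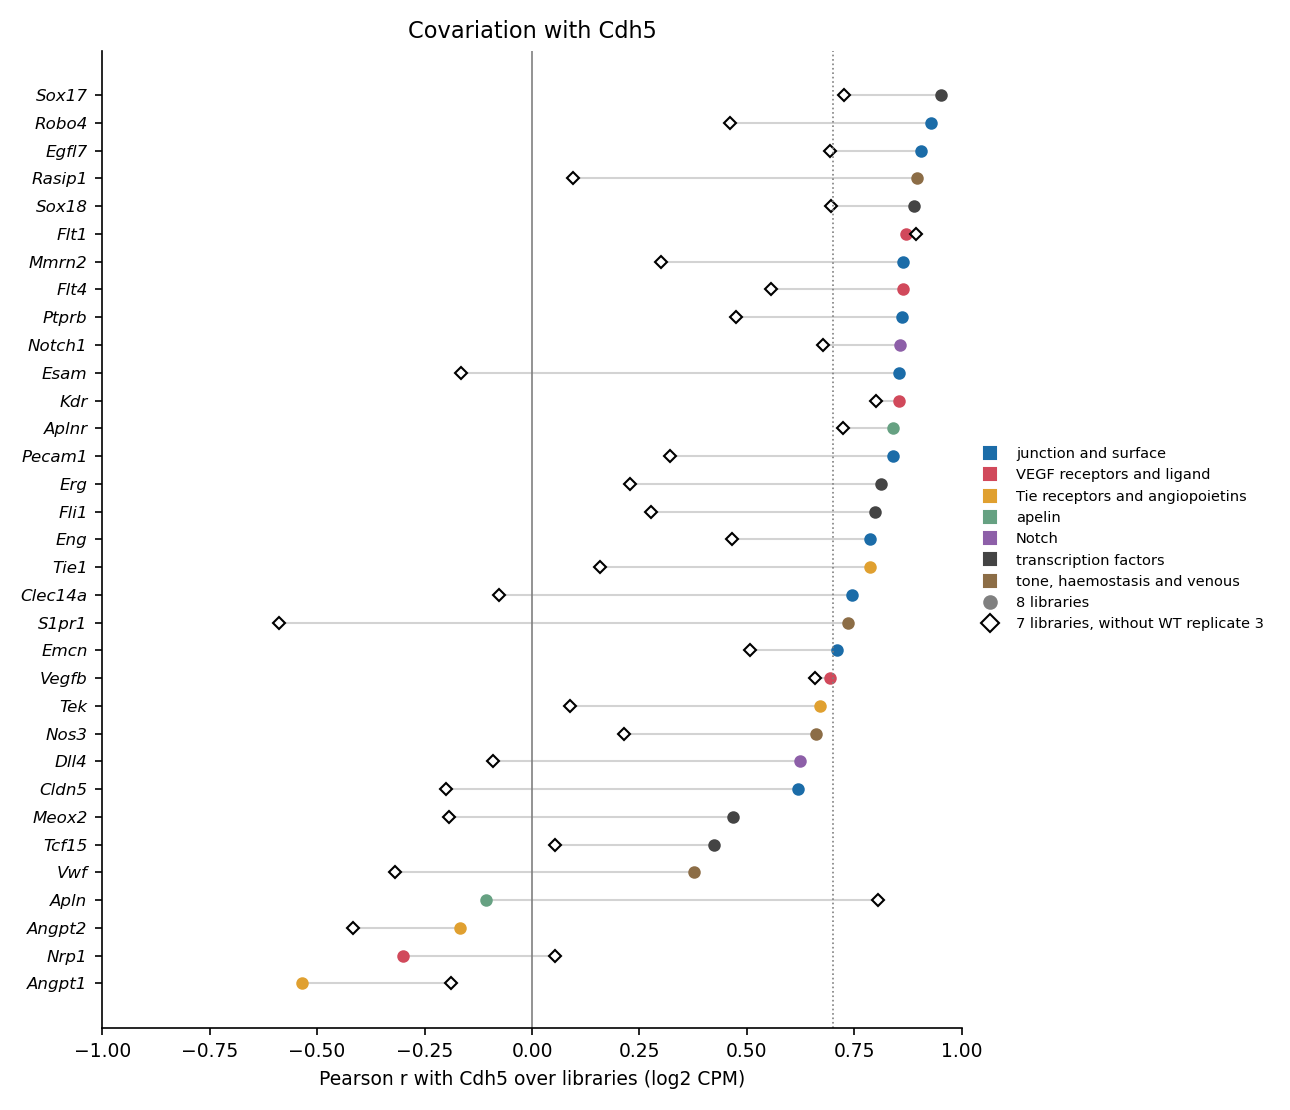
Pearson's r of 33 members with Cdh5 over 8 libraries (circles, coloured by role) and over 7 libraries without WT replicate 3 (diamonds), with a dotted line at 0.7. Flt1, Kdr, Aplnr and Sox17 stay to the right of the line in both, while S1pr1 goes from 0.73 to -0.59.

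Among all 561 pairs of tested members the median r was 0.57, and it was 0.10 without WT replicate 3. There were 5 pairs with r of 0.9 or more both with and without that library, picked out after their values were seen: Sox17 with Sox18, Sox17 with Egfl7, Tek with Tie1, Vwf with Meox2 and Cldn5 with Meox2. Sox17 and Sox18 had r = 0.96 and rho = 0.95 (exact permutation p = 0.000149 and 0.00114, adjusted p = 0.124 over all genes set against Sox17), and r = 0.92 with the 2 farthest libraries left out. Tek and Tie1 had r = 0.95 and rho = 0.93 (exact permutation p = 0.00057 and 0.00223, adjusted p = 0.659), and 0.88 with their 2 farthest libraries left out. Vwf and Meox2 had r = 0.95, rho = 0.88 (exact permutation p = 0.00057 and 0.00724, adjusted p = 0.269) and 0.85, while their r with Cdh5 was 0.38 and 0.47. Fli1 had r of 0.95 with Tie1, and 0.86 without WT replicate 3. These genes are measured in the same libraries and share their scaling.

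**Figure D5:**
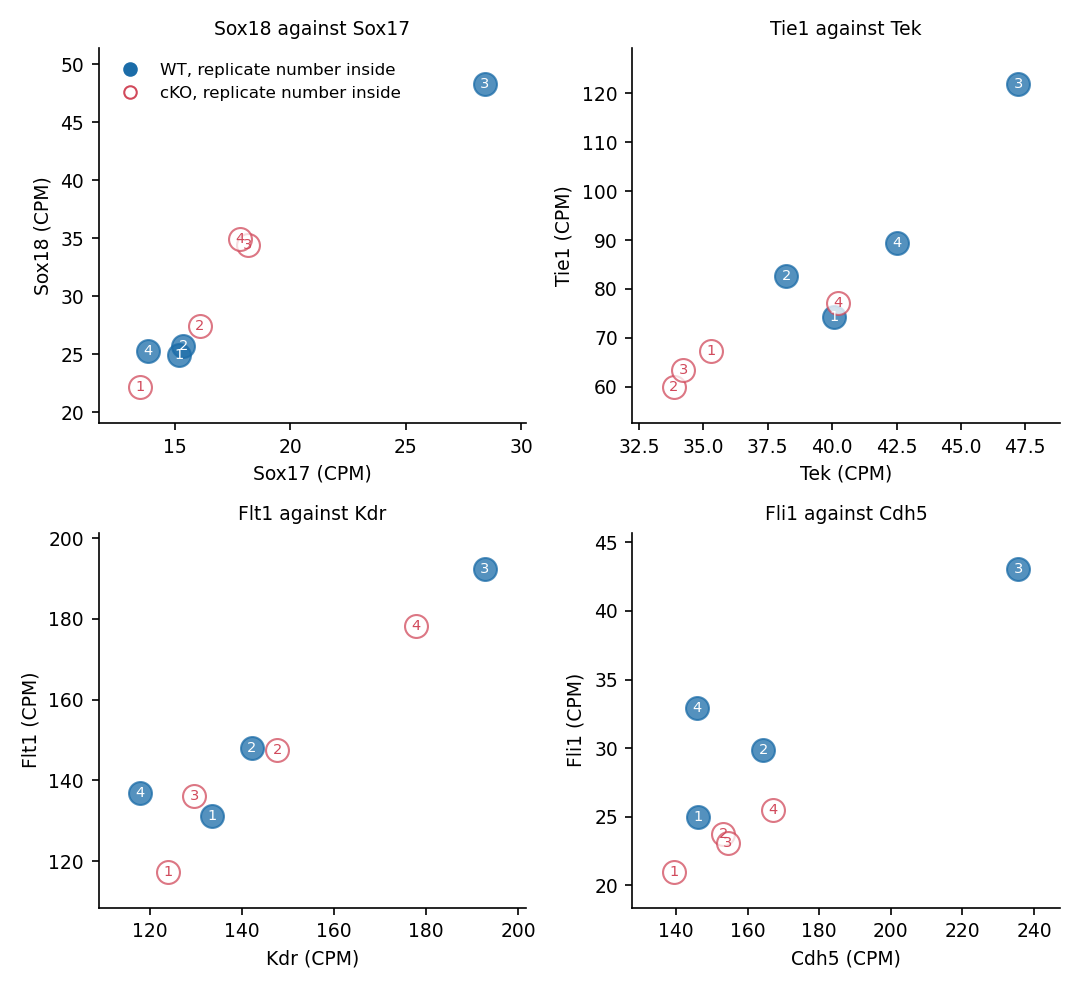
CPM of Sox18 against Sox17, Tie1 against Tek, Flt1 against Kdr and Fli1 against Cdh5, with 1 point per library (blue, WT; red outline, cKO) and its replicate number inside. WT replicate 3 is at the upper right of all 4 panels, and at similar Cdh5 levels the cKO points lie below the WT points for Fli1.

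Each gene was also divided by Cdh5 in the same library, a measure chosen after the values were seen. Without WT replicate 3, r with Cdh5 was 0.28 for Fli1, 0.16 for Tie1 and 0.28 as the median of the members. Cdh5 may therefore not stand for the endothelial level of the other libraries, and the ratio carries its variation too. Over 33 members, 31 overlapped between groups. Fli1 and Tie1 were the 2 that did not, both lower in cKO, against 0.378% of all genes lower without overlap and 1.9% without overlap in either direction. The Fli1 to Cdh5 ratio of CPM was 0.171, 0.182, 0.183 and 0.226 in WT and 0.151, 0.155, 0.150 and 0.152 in cKO. For Tie1 it was 0.509, 0.503, 0.517 and 0.613 in WT and 0.483, 0.392, 0.411 and 0.462 in cKO. The mean difference on the log2 scale was -0.31 for Fli1 and -0.29 for Tie1, and in both genes WT replicate 4 was the highest WT library. No p was computed for this ratio. The separation of Tie1 depended on the divisor. With Pecam1 in its place, Tie1 overlapped, since cKO replicate 4 (77.2 CPM, Pecam1 95.7) exceeded WT replicate 1 (74.3, Pecam1 92.8). Fli1 did not overlap with Pecam1 as the divisor, but only by a narrow margin. The nearest libraries were WT replicate 1 (24.94 CPM, Pecam1 92.77) and cKO replicate 4 (25.46, Pecam1 95.67). The share of all genes without overlap was not computed for this divisor.

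Outside the members, the 10 protein-coding genes of at least 5 CPM with the highest r with Cdh5 over the 8 libraries were Pkn3, Rpp21, Ablim3, Cyc1, Sept4, Rnf126, Dock6, Card10, Acvrl1 and Rgl2, with r from 0.95 to 0.98. Acvrl1 encodes an endothelial receptor for BMP-family ligands (r = 0.95), while Cyc1 encodes a subunit of mitochondrial complex III and Rpp21 a subunit of ribonuclease P, which all cells make. Without WT replicate 3 their r ran from 0.64 to 0.93. Of the 100 genes ranked highest by r, 5 were members.

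Further genes of the same pathways gave no call by edgeR either. Of 19 other VEGF, angiopoietin and hypoxia genes, 16 were tested and 0 called, with a median log2 fold change of 0.008. An unadjusted edgeR p under 0.05 was reached by 2 of them (12.5%, against 5.6% of all genes). Epas1, the hypoxia factor abundant in endothelium and fat, had 506 ± 41.2 in WT and 512 ± 65.8 CPM in cKO. Vegfa, the main vessel growth factor, which brown adipocytes secrete, had 346, 338, 253 and 395 in WT and 312, 431, 356 and 403 CPM in cKO, and the fitted log2 difference was 0.17 with a 95% interval of -0.15 to 0.50. WT replicate 3, the library highest for most members, was the lowest for Vegfa. Plcg1, which acts downstream of Kdr, was the 1 gene of 16 without overlap (6.25%, against 3.5% of all genes). It stood at 82.4 CPM in WT and 68.6 in cKO (edgeR adjusted p = 0.882). Egln3 had a log2 fold change of 0.55 with overlapping groups (edgeR unadjusted p = 0.0352). Plcg1 and Egln3 were named after their values were seen.

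Of 19 other Notch and BMP genes, 18 were tested and 0 called (median -0.20). An unadjusted edgeR p under 0.05 was reached by 3 of them (16.7%, against 5.6% of all genes). Bmpr2, a BMP receptor of endothelium and other cells, had the highest CPM of them, not corrected for length. Per kb of exon it stood at 3.54 CPM in WT, below Id1 at 26.6 among others. Bmpr2 was the 1 gene of 18 without overlap (5.56%, against 3.5% of all genes). Bmpr2 had 70.1, 59.3, 57.3 and 67.8 in WT and 78.7, 83.3, 73.3 and 80.2 CPM in cKO. Its log2 fold change was 0.31 (0.082 to 0.54, edgeR adjusted p = 0.867, unadjusted p = 0.0117). Jag2 (log2 fold change -0.48, edgeR unadjusted p = 0.0382) and Smad6 (-0.38, edgeR unadjusted p = 0.0493) were lower in cKO, with overlapping groups. Jag2 and Smad6 were named after their values were seen. Notch3, a receptor of mural cells, had 52.1 ± 13.1 and 44.9 ± 6.52 CPM. Of 13 other endothelial transcription factors 0 were called (median -0.025, 0 at an unadjusted p under 0.05), with Ets1 at 52.2 ± 6.16 and 48.96 ± 4.13 CPM and Ets2 at 31.6 ± 6.38 and 34.9 ± 1.53 CPM.

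Markers of vessel types were likewise not called: 0 of 6 tested arterial, 0 of 5 venous, 0 of 7 capillary and 0 of 5 lymphatic genes, by edgeR. At an unadjusted p under 0.05 there was 1, the lymphatic gene Lyve1 (5.6% of all genes were under 0.05). Capillary genes, among them Cd36, a fatty acid transporter shared with adipocytes (1799.9 ± 115 and 2000.05 ± 166 CPM), and Rgcc (161 ± 19.04 and 139 ± 18.6 CPM), had a median log2 fold change of -0.18. The arterial list, with Sema3g at 38.2 ± 10.9 and 29.9 ± 2.20 CPM and Efnb2 at 14.6 ± 3.43 and 16.8 ± 2.38 CPM, had 0.010. Venous genes had -0.12, with Lrg1 at 49.5 ± 6.004 and 45.6 ± 8.98 CPM and Ephb4 at 43.1 ± 12.3 and 36.5 ± 4.40 CPM. All 5 tested lymphatic genes had positive fold changes that did not pass (median 0.42). The whole lymphatic list of 6, with Mmrn1, which did not pass the filter on low counts, was scarce, at 5.75 to 9.34 in WT and 8.98 to 16.2 CPM in cKO. Lyve1, which some macrophages also express, had 3.05, 2.21, 2.43 and 4.98 in WT and 4.34, 4.59, 7.997 and 3.71 CPM in cKO (edgeR adjusted p = 0.884), and Reln 1.42 ± 0.795 and 1.70 ± 0.0995 CPM.

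In the genome (GRCm38), the genes that stood out are protein-coding: Cdh5 (chromosome 8, 104101625 to 104144511, plus strand), Fli1 (chromosome 9, 32422204 to 32542861, minus strand), Tie1 (chromosome 4, 118471191 to 118490061, minus strand), Tek (chromosome 4, 94739289 to 94874976, plus strand), Sox17 (chromosome 1, 4490931 to 4497354, minus strand), Sox18 (chromosome 2, 181669836 to 181671640, minus strand) and Apln (chromosome X, 48025146 to 48034853, minus strand). Tie1, Tek, Sox18 and Apln overlap no other annotated gene. Cdh5 and Sox17 each overlap a predicted gene on the opposite strand, and Fli1 overlaps 5 on its own strand and 1 on the other. Overlaps were counted over whole gene spans, introns included, so overlapping genes need not share reads. Reads from places that genes of opposite strands share cannot be assigned without strand. Of the 35 genes, 30 shared under 1% of their 31-base sequences with transcripts of other genes. That comparison used the transcribed direction only and does not cover overlaps on the opposite strand.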

How the data were processed

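RNA of brown fat was measured in 8 libraries, 4 WT and 4 cKO, grouped by title. The authors deposited estimated counts per Ensembl gene, not whole numbers. StringTie, Salmon and edgeR are named with GRCm38, per the submitters' processing notes; their versions and roles and the strand setting are not stated there. The table holds 54385 identifiers, of which 54131 (99.5%) were named through the reference annotation.

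The estimated counts were rounded and fitted with edgeR 4.0.16 in R 4.3.3 (filterByExpr, TMM scaling, robust quasi-likelihood F test, group as the only term), with Benjamini-Hochberg adjustment over all 14553 genes tested and a threshold of 0.05. Totals of 10713043 to 32437214 estimated counts set the precision. CPM used TMM-scaled library sizes, and log2 CPM a prior count of 2. Levels per kb used the union of annotated exons. Correlations over 8 libraries used exact permutation over all 40320 orderings of the libraries in Python 3.11.15, where the smallest p the orderings allow is 2.48e-05.

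The members and lists were chosen with earlier results of these data known. Genes named were all 35 members, Adcy3 and the 10 protein-coding genes of at least 5 CPM closest to Cdh5. From each further endothelial or vessel list came the 2 genes of highest mean CPM, not corrected for length, as none was called. Marker lists of other cell types are given as sums. Plcg1, Egln3, Jag2, Smad6, the close pairs, the promoter windows shown and the level relative to Cdh5 or Pecam1 were chosen after the values were seen. Alternatives were DESeq2 1.42.0, limma-voom (limma 3.58.1), other scaling and filters, a muscle covariate, a replicate block, each library left out and WT replicate 4 moved to cKO. The scripts were tested on simulated data. No 2 libraries of a group agreed within sampling noise.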

Additional observations from a re-analysis of the deposited data

Results flagged for a closer look

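Among 72 groups of 4 libraries (35 members and Adcy3, each in WT and cKO), 12 had a library far from the other 3, past the 95% critical value of Dixon's test for a distant value. Chance alone flags about 5% of groups, and members measured in the same library are not independent of each other.

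WT replicate 3 was the distant high library in 8 of them. There Eng was at 134 CPM, Sox17 at 28.4, Sox18 at 48.3, Egfl7 at 90.8, Robo4 at 55.2, Ptprb at 132, Rasip1 at 52.2 and S1pr1 at 130.2 CPM. The same library was far below the other WT libraries for Adcy3, at 61.7 CPM. WT replicate 2 was distant in 2 genes of few counts, high for Apln at 3.07 CPM and low for Angpt2 at 1.14 CPM. In cKO, replicate 3 was high for Pecam1 at 115 CPM.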

How the results depend on the processing

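edgeR called 10 genes over the whole table. DESeq2's Wald test called 46, edgeR with no filter on low counts 93, and edgeR with WT replicate 4 moved to cKO 1, while leaving out 1 library at a time gave 8 to 14. The members called were 0 in every one of these fits. Adcy3 kept its sign throughout, and its call was lost with the replicate block (edgeR adjusted p = 0.225) and when WT replicate 4 counted as cKO (0.747).

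Of the members at r of 0.7 or more with Cdh5, there were 21 over 8 libraries, 8 by Spearman's rho, 4 without the 2 farthest libraries, 12 with Pecam1 and 13 with Tie1 as the anchor, and 5 to 25 with 1 library left out at a time. The lowest of these, 5, was without WT replicate 3, and values centred within each group gave 21.

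The signs of single members depended on the libraries: 14 of 34 kept their sign in all 19 alternatives. The labels do not say whether replicate numbers pair libraries. After centring within each group, the correlations of same-numbered libraries were -0.46, 0.035, 0.41 and 0.0016. Only WT replicate 3 matched its own number best, and these values cannot exclude a pairing. A replicate block called 7 genes and 0 members. Depth limits Angpt2, Apln and Ackr1, which had the fewest counts.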
